A study of Oryza sativa with 8 samples.

Results

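Chlorophyll breakdown genes of rice (Oryza sativa) are described here in leaf blades and leaf sheaths of plants under salt, set against control plants. The set was defined by identifier and holds 6 genes, SGR, NYC1, NOL, NYC3, PAO and RCCR1. Of these, 4 were among the 5827 identifiers that the authors list as changed in either tissue. All 4 were in the blade list, and none of the 6 was in the sheath list. The plants were grown in hydroponic solution. The 8 RNA samples formed 4 groups of 2, namely blade salt, blade control, sheath salt and sheath control, and salt meant 100 mM NaCl for 24 h. The series concerns tolerance of sodium inside the tissue in a Japanese landrace, but the sample labels give no variety, genotype or plant age. Whether both samples within a group were taken from different plants is not said in the labels, and the authors' p-values may measure a spread that is technical. The files hold group means of selected genes and no value per sample, so no SD can be given for a level.

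In leaves, chlorophyll is taken apart in the plastid by a fixed order of enzymes, a pathway best known from senescence and from stress-induced yellowing. NYC1 and NOL together form chlorophyll b reductase, which starts the conversion of chlorophyll b to chlorophyll a. SGR, the STAY-GREEN protein, removes magnesium from chlorophyll a and yields pheophytin a. NYC3, the rice pheophytinase, then cuts off the phytol tail, which leaves pheophorbide a. PAO, pheophorbide a oxygenase, opens the ring, and RCCR1, red chlorophyll catabolite reductase, reduces the product. Pheophorbide a and the red catabolite are phototoxic when they build up, so the last steps also serve detoxification.

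In leaf blades, SGR, NYC3, PAO and RCCR1 all rose with salt, and the rise was largest for SGR and next largest for RCCR1. By the authors' deposited table, SGR rose by 3.48, RCCR1 by 1.58, NYC3 by 0.87 and PAO by 0.73 on the log2 scale. Read along the pathway, the log2 fold changes were thus largest at the removal of magnesium, smaller at the next steps, and larger again at the last one. All 4 listed members were higher, whereas 51.7% of the 4623 blade genes that the authors' deposited table holds were higher. A rise of at least 1 on the log2 scale was listed for 2 of the 4, set against 19.8% of the genes in that table. The median log2 fold change of the listed members was 1.23, against 0.27 over all genes in the authors' deposited table and 0.76 over those that rose. How many genes the authors tested is not given in the sources used here, so the share of all tested genes that was listed cannot be had. In bulk tissue, a change in the number of cells of a type and a change in RNA per cell cannot be told apart.

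The chlorophyll b reductase genes NYC1 (Os01g0227100) and NOL (Os03g0654600), which encode the entry from chlorophyll b, were in neither list. They were not selected by the authors in either tissue, and no level of them was analysed here. Their absence from the lists does not show that they stayed the same, and it leaves the first step of the pathway without a value.

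SGR (Os09g0532000, on chromosome 9) was the scarcest of the 4 transcripts in both conditions. The authors' mean was 18.0 TPM (a level scaled for transcript length and library size) in salt blades and 1.43 TPM in control blades. In reads, the authors' deposited table gave means of 383.5 per library with salt and 31.5 in controls, or 767 and 63 reads over each group of 2 libraries. The control level therefore rests on few reads. The authors' deposited table gave q = 2.7e-35, the q-value being the p-value adjusted for the number of genes tested. The read ratio, scaled to the authors' fold changes, was 11.1-fold with an exact 95% counting interval from 8.61-fold to 14.6-fold. Such intervals cover counting error and not the spread between plants. Among the 2392 genes that rose in the authors' deposited table for blades, SGR ranked 174th by fold change, so that 7.27% of them rose at least as far. By control level it stood low, with 11.3% of the genes listed in the authors' deposited table below it, and by salt level near the middle, with 48.2% below it.

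NYC3 (Os06g0354700, on chromosome 6) and PAO (Os03g0146400, on chromosome 3), the pair of enzymes that follow SGR, were the more abundant members. The authors' mean for NYC3 was 54.4 TPM in salt blades and 26.0 TPM in control blades, and its log2 fold change of 0.87 had q = 1.0e-18 in the authors' deposited table. For PAO, the authors' mean was 68.4 TPM in salt blades and 36.0 TPM in control blades, and its log2 fold change of 0.73 had q = 7.9e-15 in the authors' deposited table. The 2 changes lay close together. Over each group of 2 libraries, NYC3 had 3720 reads with salt and 1861 in controls, and PAO had 4777 with salt and 2629 in controls. The scaled read ratios were 1.83-fold for NYC3 (95% counting interval 1.73 to 1.94) and 1.66-fold for PAO (1.59 to 1.75). The ends of these intervals overlap slightly, and NYC3 lay above PAO in the listed fold change and as a ratio of mean TPM, FPKM and reads; the spread between samples could not be set against that difference. Both ranked near the middle of the genes that rose in the authors' deposited table, of which 44.5% rose at least as far as NYC3 and 52.2% at least as far as PAO.

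RCCR1 (Os10g0389200, on chromosome 10), which acts on the product of PAO, lay between SGR and this pair in both level and fold change. The authors' mean was 26.0 TPM in salt blades and 7.61 TPM in control blades, with a log2 fold change of 1.58 and q = 2.5e-18 in the authors' deposited table. Its mean read counts, 475.52 with salt and 145.015 in controls in the authors' deposited table, are not means of 2 whole numbers. Its counts were thus estimated, and its values are less certain than those of the other members, as reads may be shared with a similar sequence. The scaled read ratio was 3.0-fold, with a 95% counting interval from 2.63-fold to 3.44-fold. That interval lay wholly below the interval of SGR and wholly above those of NYC3 and PAO. It rests on estimated counts rounded to whole reads and covers counting error only. The spread between samples could not be set against these differences. Of the genes that rose in the authors' deposited table, 22.9% rose at least as far as RCCR1.

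**Figure D1:**
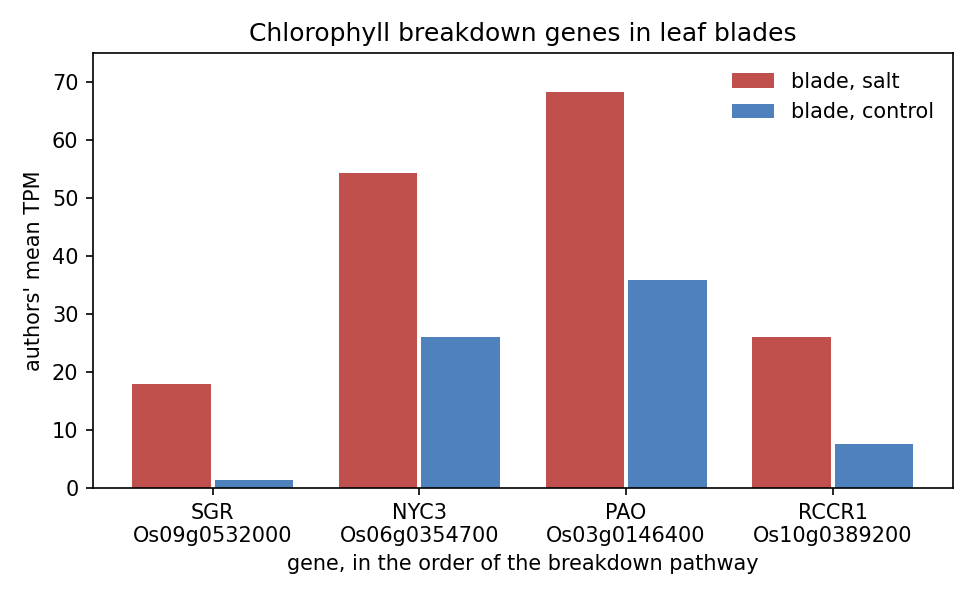
Authors' mean level in TPM of the 4 breakdown genes listed in leaf blades, with salt (red, left bar) and in control (blue, right bar), in pathway order. Each bar is a group mean of 2 libraries without an error, because no value per library was given; PAO was highest and SGR lowest in both conditions.

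**Figure D2:**
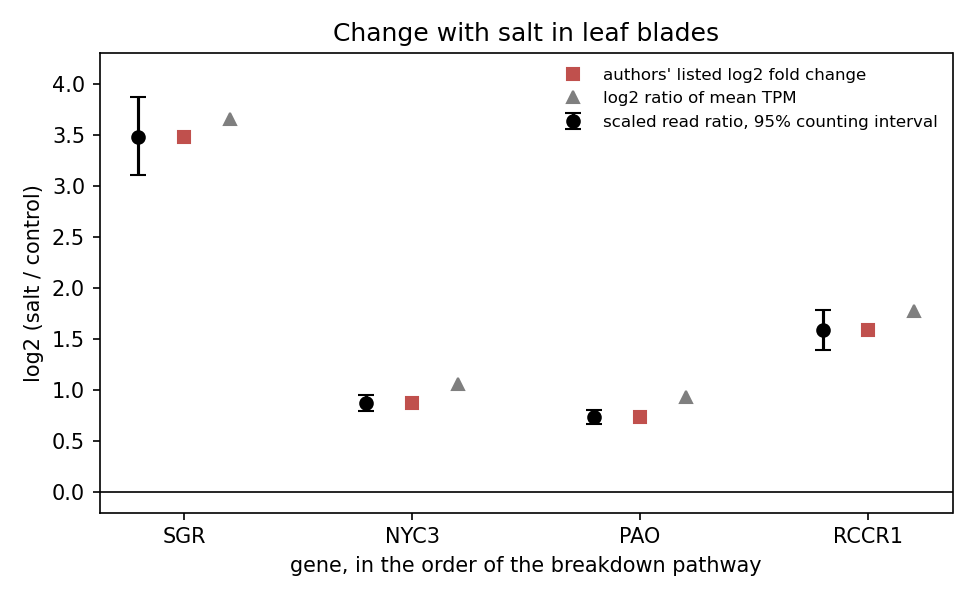
Change with salt in blades on the log2 scale, as the scaled read ratio with its exact 95% counting interval (black), the authors' listed log2 fold change (red squares) and the log2 ratio of mean TPM (grey triangles). SGR stands at 3.48 and RCCR1 at 1.58, while NYC3 and PAO lie close together at 0.87 and 0.73.

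The order of the 4 transcripts by level was the same with salt and without, PAO highest, then NYC3, RCCR1 and SGR, but their levels lay closer together with salt. The highest member exceeded the lowest by 3.79-fold in salt blades and by 25.1-fold in control blades, as ratios of the authors' mean TPM. NYC3 stood 3.01-fold above SGR in salt blades and 18.2-fold above it in control blades on the same scale. RCCR1 stood 1.44-fold above SGR in salt blades and 5.32-fold above it in control blades. PAO and NYC3, by contrast, kept nearly the same ratio, with PAO 1.26-fold above NYC3 in salt blades and 1.38-fold above it in control blades. SGR made up 10.8% of the summed TPM of the 4 genes with salt and 2.01% in controls, whereas PAO made up 41.0% with salt and 50.6% in controls. The sum itself was 166.8 TPM in salt blades and 71.0 TPM in control blades, which is 2.35-fold. In added TPM the genes ran in the opposite order to that of fold change, with gains of 32.4 TPM for PAO, 28.3 for NYC3, 18.4 for RCCR1 and 16.6 for SGR. With group means alone, none of these ratios between genes could be tested against the spread between samples.

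**Figure D3:**
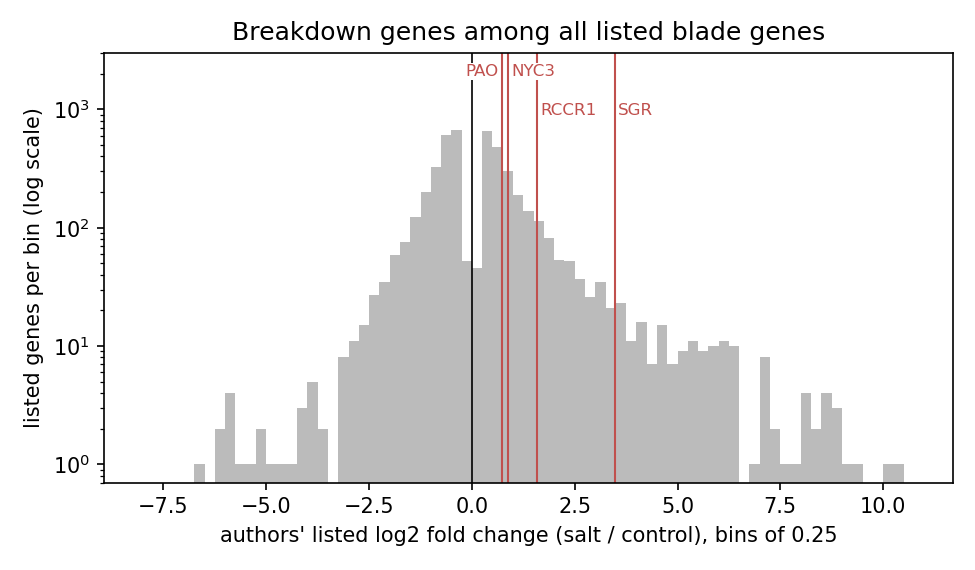
Number of genes per bin of 0.25 (log scale on the vertical axis) by the authors' listed log2 fold change for the 4623 listed blade genes, with red lines at the breakdown genes. SGR lies in the upper tail at 3.48, whereas PAO and NYC3 lie near the median of 0.76 of the genes that rose.

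Other genes around the pathway were taken from lists of 4 further breakdown genes, 15 chlorophyll synthesis genes, 12 antenna genes and 6 senescence regulators. Of the 4 further breakdown genes, 1 was higher and 3 were lower in blades in the authors' deposited table, at a median of -0.32 on the log2 scale, which was -0.12 as a ratio of mean TPM. Of all genes listed there, 51.7% were higher and 48.3% lower, so a split of 1 and 3 is not a result about these genes. NYC4, also called THF1, a plastid protein that rice needs to degrade chlorophyll-protein complexes in senescence, had an authors' mean of 373.5 TPM in salt blades and 615.8 TPM in control blades. Its log2 fold change was -0.91 with q = 3.1e-45 in the authors' deposited table, so it moved the other way from the 4 enzymes. The remaining 3, whose names could not be checked, had log2 fold changes of 0.49 (Os10g0419600), -0.26 (Os04g0320100) and -0.37 (Os04g0692600) in the authors' deposited table, which were 0.69, -0.06 and -0.17 as ratios of mean TPM.

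Chlorophyll synthesis genes were lower in blades wherever they were listed. Of 15, 9 were in the authors' deposited table and all 9 were lower, against 48.3% of all genes there, at a median of -0.47 on the log2 scale, which was -0.27 as a ratio of mean TPM. PORA and PORB encode the light-dependent protochlorophyllide oxidoreductases. PORA had an authors' mean of 104.8 TPM in salt blades and 400.1 TPM in control blades, and the authors' deposited table put its log2 fold change at -2.13. For PORB the authors' deposited table gave a log2 fold change of -0.47. CHLH, CHLD and CHLI, the subunits of magnesium chelatase, which inserts the metal that SGR takes out, stood at -0.78, -0.49 and -0.48 (log2 fold change, authors' deposited table), CHLH from estimated counts. ALAD, which acts early in the synthesis of tetrapyrroles, had the smallest listed change, -0.20 with q = 0.039 in the authors' deposited table. As a ratio of mean TPM it changed by only -0.02, because the listed value minus the log2 TPM ratio had a median of -0.19 over the blade genes. The direction of the other 8 also held as a ratio of mean TPM.

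The listed antenna genes, whose proteins hold most of the chlorophyll b, were also lower in blades, some of them only slightly. Of 12, 10 were in the authors' deposited table, all 10 of them lower, against 48.3% of all genes there, at a median of -0.37 on the log2 scale, which was -0.21 as a ratio of mean TPM. By log2 ratio of mean TPM, Os07g0562700 (-0.05), Os06g0320500 (-0.06), Os07g0577600 (-0.04) and Os02g0197600 (-0.06) barely changed. The others ranged from -0.19 to -1.32 on that scale. CAB2R, a light-harvesting protein of photosystem II, was listed at -0.55 (log2 fold change, authors' deposited table), and its counts were estimated. The authors' deposited table gave the largest change among them, -1.51, to Os01g0720500, whose name could not be checked and whose counts were also estimated. In all, 8 of the 12 antenna names could not be checked. Of the senescence regulators, Os03g0327800, without a checked name, was the 1 of 6 in the authors' deposited table for blades, with a log2 fold change of 0.69 and q = 0.019. The other 5, among them NAC2 and DOS, were in neither list.

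No gene of these lists had a blade change close to that of SGR. With likeness measured as the distance between listed log2 fold changes in this 1 comparison, the nearest were Os03g0327800 at 2.79 below SGR, Os10g0419600 at 2.98 below it and ALAD at 3.68 below it in the authors' deposited table.

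In leaf sheaths, none of the 6 breakdown genes was in the authors' deposited table, which holds 1998 genes with adjusted p up to 0.004. The blade list goes up to q = 0.0499. The 4 blade q-values would also have passed at 0.004. So would most listed blade genes: 63.3% of them had q of 0.0028 or lower, and 67.7% had 0.0046 or lower. The 2 lists also come from tests that differ in their columns and may differ in their method. Whether the response of the breakdown genes differs between blade and sheath was not tested, since sheath values of these genes were not analysed here. Mean levels in the sheath list, in a unit the header does not name, ran from 0.284 to 6192. Where the 6 members would lie in that range is not known, and whether their level bears on their absence was not tested.

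The synthesis and antenna genes listed in sheaths were higher with salt, whereas those listed in blades were lower. In the authors' deposited table for sheaths, 3 of 15 synthesis genes, 2 of 12 antenna genes and 1 of the 4 further breakdown genes were listed, all 6 of them higher, against 45.6% of all listed sheath genes. CHLH had an authors' mean level of 230.1 in salt sheaths and 160.3 in control sheaths, and the authors' deposited table put its log2 fold change at 0.52 (adjusted p = 0.003). It was thus higher with salt in sheaths and lower with salt in blades. Os02g0197600 of the antenna list showed the same pair of directions, with 0.61 in sheaths and -0.25 in blades as log2 fold changes of the authors' deposited table, the blade value being -0.06 as a ratio of mean TPM. Os04g0692600 of the further breakdown genes did so too, with 0.78 in sheaths and -0.37 in blades in the authors' deposited table. Its blade value was -0.17 as a ratio of mean TPM. These 3 were the list members present in both tables, and the difference between tissues itself was not tested for any of them.

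**Figure D4:**
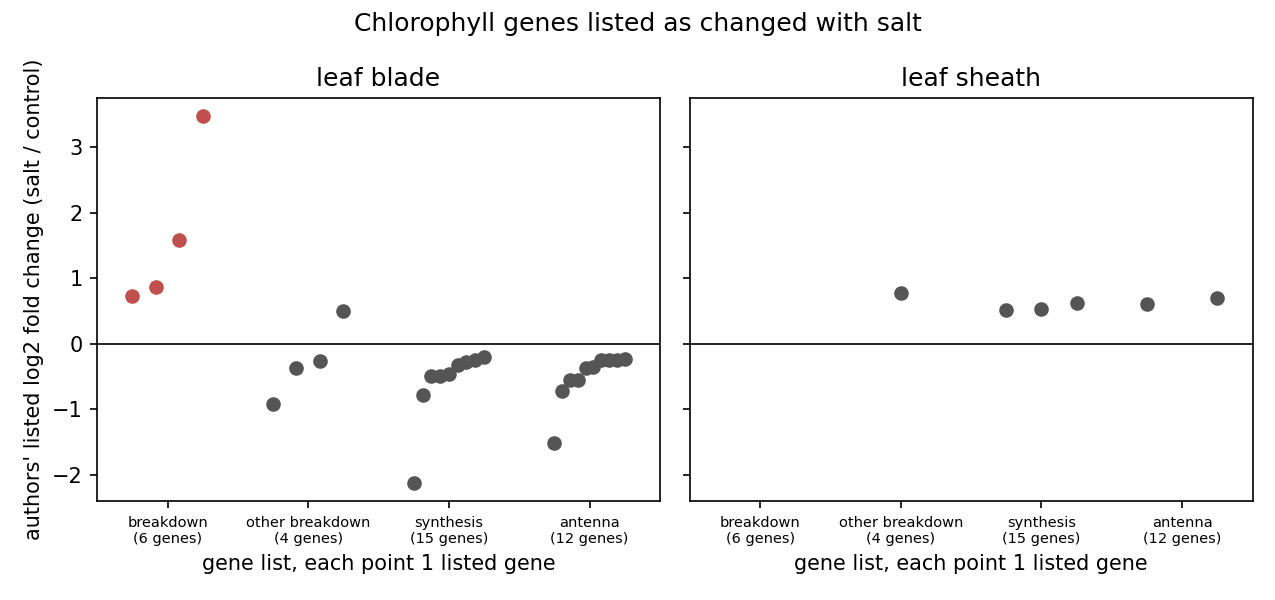
Authors' listed log2 fold change (salt over control) of each listed gene of the 4 chlorophyll lists, in blades (left) and sheaths (right), with the breakdown genes SGR, NYC3, PAO and RCCR1 in red. In blades these 4 lie above 0 and all listed synthesis and antenna genes below it. In sheaths none of the 6 members of the set was listed. The 6 genes listed there, 1 of them a further breakdown gene, lie between 0.52 and 0.78.

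For the depth of the data, the listed blade genes summed to a mean of 9995664 reads in salt and 10745825 in control libraries in the authors' deposited table, while no depth is known for the sheath libraries. The leaf markers RBCS and RCA were listed in the authors' deposited table for blades, with authors' means of 28778 and 8022 TPM in salt blades and 53569 and 8160 TPM in control blades. The shoot meristem marker OSH1 and, in sheaths, RBCS and RCA were not listed. RBCS and RCA are abundant in green leaf tissue in general, so these levels do not tell blade from sheath, and the tissue labels were not checked beyond this.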

How the data were processed

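Libraries were made from leaf RNA with an mRNA kit, per the labels' protocols. HISAT, without version, and the genome build mm10 are named in the submitters' processing notes; mm10 is a mouse build and cannot belong to these identifiers, so the sources used here give neither the true build nor the annotation, counter or test. As deposited, each tissue has 1 table with group values of genes already selected as changed. Per the file headers, the blade table holds a log2 fold change, mean TPM, mean read count, mean FPKM and a q-value. Of the blade genes, 5.58% have read counts that are not means of 2 whole numbers, so these deposited counts are estimated counts. The Case1 columns were read as salt, since blades have 1 further group. The sheath table, per the file headers, holds a log2 fold change, an expression signal of unnamed unit per group, a standard error, a test statistic used here as a score, and p-values before and after adjustment.

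No new test across genes was possible. Computed here were ratios of the authors' means, ranks, counts per direction, and exact (Clopper-Pearson) 95% counting intervals of summed blade reads, rounded to whole reads and scaled by the median offset of -0.13 (log2) between listed fold change and read ratio; the interval was tried on simulated counts. The members and lists were chosen with earlier results of these data known. Genes named were the 6 members and the listed genes of the fixed lists, plus the list genes nearest to SGR in fold change. None of the 5827 identifiers was in the RefSeq name table (assembly ASM3414082v1). A name counted as checked when that table had it, or another name of the gene, once and on the chromosome given in the identifier; this held for 24 of 46 list names, 4 of the 6 members among them. NYC3 and PAO were not in it, and their names come from the definition of the set. Coordinates and sequences are not used here. The work used SciPy 1.17.1 for intervals, matplotlib 3.10.9 for figures, and pandas 2.3.3 with numpy 2.4.6 under Python 3.11.15.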

Additional observations from a re-analysis of the deposited data

How the results depend on the processing

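The 4 listed members stayed higher under each fold estimate tried. NYC3 was 1.06 as a log2 ratio of mean TPM, 1.01 of mean FPKM, 1.0 of mean reads and 1.03 of mean TPM plus 1. PAO was 0.93, 0.87, 0.86 and 0.91 in the same order, and SGR was 2.97 with 1 added to each mean TPM. These lay outside the counting interval of the scaled read ratio, while the other values of SGR and those of RCCR1 lay inside it. The interval was scaled by the median offset of -0.13 (log2), and the ratios compared with it were not. For NYC3 and PAO, with more reads, it was narrow enough for that offset to place them outside. This comparison therefore does not rank the members by how steady their changes are. With q under 0.01 all 4 members kept their call. The other blade lists then held 7 synthesis genes, 9 antenna genes, 3 further breakdown genes and 0 senescence regulators. Most listed blade genes pass this cut: 74.0% of all of them had q of 0.0083 or lower, and 78.6% had 0.0119 or lower. The counts kept are therefore not a result about the members or the lists. With a minimum change of 1 on the log2 scale as a further condition, 2 members stayed higher in blades, NYC3 and PAO being lost, and 1 synthesis gene (PORA) and 1 antenna gene stayed lower. Under that condition 0 further breakdown genes were left in either direction or tissue, and 0 synthesis and 0 antenna genes in sheaths. Of all listed blade genes, 19.8% rose by at least 1. Of those that were lower, 22.0% had a log2 fold change of -1.09 or lower, and 30.9% had -0.91 or lower. The counts of synthesis and antenna genes left are thus not read as a result about those lists. Directions from group values, added after the data were seen, left every list count as it was. No paired analysis was possible because the files give no values per sample, and for the same reason leaving out a replicate, another normalization and a filter on low values were not run. The sheath fold estimates were not recomputed for the members, as none was listed there.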

Other observations

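Listed identifiers within 100 of a member by locus number were looked up after the values had been seen, and 4 were found, none with a name in the sources used here. In the authors' deposited table for blades, their log2 fold changes were 0.37 beside SGR, 0.45 beside NYC1, -0.74 beside PAO and 3.12 beside RCCR1. The last, Os10g0389300, had the largest change of the 4. Its authors' mean was 7.51 TPM in salt blades and 0.745 TPM in control blades, with q = 1.9e-13 in the authors' deposited table. It was also listed in sheaths, with authors' mean levels of 5.50 with salt and 1.55 in controls, a log2 fold change of 1.35 and adjusted p = 7.7e-05 in the authors' deposited table. The listed 1.35 is smaller than the log2 ratio of these levels. It is also smaller than 1.79, the test statistic of Os10g0389300 multiplied by its standard error. That product also exceeded the listed value, by less, for each list gene in sheaths, as for CHLH (0.56 against 0.52). How the listed sheath value was estimated is not given. Whether reads of Os10g0389300 are shared with RCCR1, whose counts were estimated, was not tested.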
